A study of Mus musculus with 12 samples.

Results

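Neurotrophins are secreted growth factors of neurons, and the 6 genes described here encode 2 of them together with 4 of their receptors. They were chosen by gene symbol, with earlier results of these data known, and all 6 were found among the 32285 mouse genes of the deposited count matrices. The samples were superior mesenteric ganglia (SMG), a sympathetic ganglion of the abdomen, dissociated and profiled by droplet single-cell RNA-seq with 10x Genomics 3' chemistry, in which each captured RNA molecule counts as 1 unique molecular identifier (UMI). All mice were of strain 129+Ter/SvJcl, and the series held 1 wild-type (WT) mouse aged 3 weeks, 10 Th-MYCN+/- mice aged 3 weeks (#1 to #10) and 1 Th-MYCN+/- mouse aged 6 weeks. The hemizygous transgene placed human MYCN under the rat tyrosine hydroxylase promoter, so that it is driven in catecholamine-producing cells, and the 6-week-old ganglion was picked by the study because it carried a visible tumor. With 1 WT and 1 6-week-old sample, a difference from the 3-week-old Th-MYCN+/- mice has no replicate check, and genotype, age and mouse cannot be told apart there.

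BDNF, encoded by Bdnf, is the ligand of the receptor tyrosine kinase TrkB (Ntrk2), and neurotrophin-3, encoded by Ntf3, is the main ligand of TrkC (Ntrk3). The p75 neurotrophin receptor (Ngfr) binds every mature neurotrophin and the uncleaved pro-forms, and sortilin (Sort1) is its partner in the receptor complex for pro-neurotrophins as well as a sorting receptor inside the cell. Sympathetic neurons are known to depend on neurotrophins for survival while they innervate their targets, Schwann cells and satellite glia are known to carry TrkB mainly as forms that lack the kinase, and BDNF with TrkB has long been studied in neuroblastoma.

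Ntrk2 lies on chromosome 13 (58806569 to 59133970, plus strand, GRCm38, GENCODE M21), Ntrk3 on chromosome 7 (78175959 to 78738012, minus strand), Ngfr on chromosome 11 (95568818 to 95587735, minus strand), Sort1 on chromosome 3 (108284082 to 108361511, plus strand), Bdnf on chromosome 2 (109674700 to 109727007, plus strand) and Ntf3 on chromosome 6 (126101412 to 126166910, minus strand). The annotation held 7 coding transcripts of Ntrk2 with 6 ends more than 1000 bases apart, and 6 coding transcripts of Ntrk3 with 5 such ends, so that the counts add up receptor forms with and without the kinase, which gene-level 3' counts cannot separate. Other annotated genes of the same strand overlapped Ntrk2 (1 gene), Ntrk3 (2 genes) and Sort1 (1 gene), and their reads may not be separable from those of the receptor. No annotated gene overlapped Ngfr or Ntf3, and Bdnf was overlapped by 1 gene of the other strand.

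RefSeq promoter sequences (GRCm38.p6, 250 bases before to 50 bases after the transcript start) were on hand for 4 of the 6 genes, namely Ntrk2, Ngfr, Bdnf and Ntf3. Because MYC proteins bind E-boxes, each was searched on both strands for the E-box CACGTG, for the GC box GGGCGG and for the CRE-like element TCACGTCA, a known type of activity-response element of Bdnf. The E-box was in 7.15% of all 32851 promoters, the GC box in 35.7% and the CRE-like element in 0.441%. None of the 7 Bdnf promoters, nor that of Ngfr or Ntrk2, held the E-box, which says only that these letters are not in these windows. One of the 2 Ntf3 promoters held it, and 1 Bdnf promoter held the CRE-like element. The promoters of the 2 receptors with calls between classes, the Bdnf promoter with the CRE-like element and the Ntf3 promoter with the E-box are given 5' to 3' on the strand of the gene, with every match of the 3 motifs in capitals.
Ngfr, chr11:95587649-95587948, minus strand: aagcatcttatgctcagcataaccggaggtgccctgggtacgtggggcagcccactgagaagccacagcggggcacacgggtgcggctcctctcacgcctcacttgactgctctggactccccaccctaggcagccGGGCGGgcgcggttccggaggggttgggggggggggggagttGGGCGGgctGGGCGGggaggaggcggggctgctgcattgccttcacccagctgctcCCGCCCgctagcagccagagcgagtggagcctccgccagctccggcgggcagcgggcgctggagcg
Ntrk2, chr13:58806319-58806618, plus strand: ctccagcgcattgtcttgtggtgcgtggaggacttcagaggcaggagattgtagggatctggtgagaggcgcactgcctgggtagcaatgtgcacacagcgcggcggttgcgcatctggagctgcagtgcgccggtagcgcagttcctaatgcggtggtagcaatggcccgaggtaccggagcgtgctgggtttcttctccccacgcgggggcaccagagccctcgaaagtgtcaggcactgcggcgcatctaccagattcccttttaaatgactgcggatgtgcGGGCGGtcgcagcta
Bdnf, chr2:109692186-109692485, plus strand: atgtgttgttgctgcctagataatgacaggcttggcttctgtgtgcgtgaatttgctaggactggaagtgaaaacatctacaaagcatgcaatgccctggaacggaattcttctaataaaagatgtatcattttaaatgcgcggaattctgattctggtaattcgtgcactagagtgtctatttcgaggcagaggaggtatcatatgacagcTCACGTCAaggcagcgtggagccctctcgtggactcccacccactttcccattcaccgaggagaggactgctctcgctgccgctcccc
Ntf3, chr6:126166695-126166994, minus strand: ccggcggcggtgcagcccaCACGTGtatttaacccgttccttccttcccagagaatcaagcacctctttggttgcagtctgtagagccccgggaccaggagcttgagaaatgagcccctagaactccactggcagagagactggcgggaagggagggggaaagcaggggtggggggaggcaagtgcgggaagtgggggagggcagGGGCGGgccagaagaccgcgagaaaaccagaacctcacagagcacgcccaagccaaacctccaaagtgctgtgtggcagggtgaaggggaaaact
The Ngfr promoter was the richest in G and C (71.7%) and held 4 GC boxes, against 1 GC box in the Ntrk2 promoter.

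Across the 12 samples 12015 cells were kept, and they were clustered without the 6 genes and named from marker lists. This gave 2889 Schwann-like, 2779 neuroblast-like, 2746 ganglion-like, 529 endothelial-like, 168 myofibroblast-like, 141 fibroblast-like, 242 macrophage-like and 43 NKT-like cells, with 2478 cells in 3 clusters that met too few markers for a name. Library totals ran from 1147771 to 6388765 UMIs and the median cell held 556 to 2367 UMIs. The MYCN transgene was at 0 UMIs in the WT sample, and in the Th-MYCN+/- samples it was found in 94 to 365 cells apart from mouse #2, where 15 of 1832 cells had a UMI. Mouse #2 stood apart in other ways too: 1505 of its cells were ganglion-like, only 22 neuroblast-like and 7 Schwann-like, and 38.7% of its UMIs were in cells against 61.1% to 87.1% in the other 11 libraries. In all, 93 cell barcodes occurred in 2 or more libraries, where 88.7 shared pairs are expected from the size of the barcode list.

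Among the neural classes Bdnf was highest in neuroblast-like cells, Ngfr in ganglion-like cells and Ntrk2 in Schwann-like cells. Ntrk2 was also found in fibroblast-like cells, and the receptor gene Ntrk3 at low levels in all neural classes. Levels are given as UMIs of the gene per 1000000 UMIs of a class in a mouse (CPM), for mice with at least 5 cells of the class. In the 3-week-old Th-MYCN+/- mice Bdnf averaged 142 ± 34.4 CPM in neuroblast-like cells, Ngfr 640 ± 140 CPM in ganglion-like cells and Ntrk2 359 ± 143 CPM in Schwann-like cells (SD, n = 10 each). Sort1 was low in every neural class and highest there in Schwann-like cells (36.3 ± 19.7 CPM), Ntrk3 was near 10 CPM in the neural classes, and Ntf3 was found almost solely in myofibroblast-like and neuroblast-like cells. Because each class of each mouse is 1 sum of counts, fewer RNA molecules per cell and fewer expressing cells are told apart only where shares of cells are given.

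**Figure D1:**
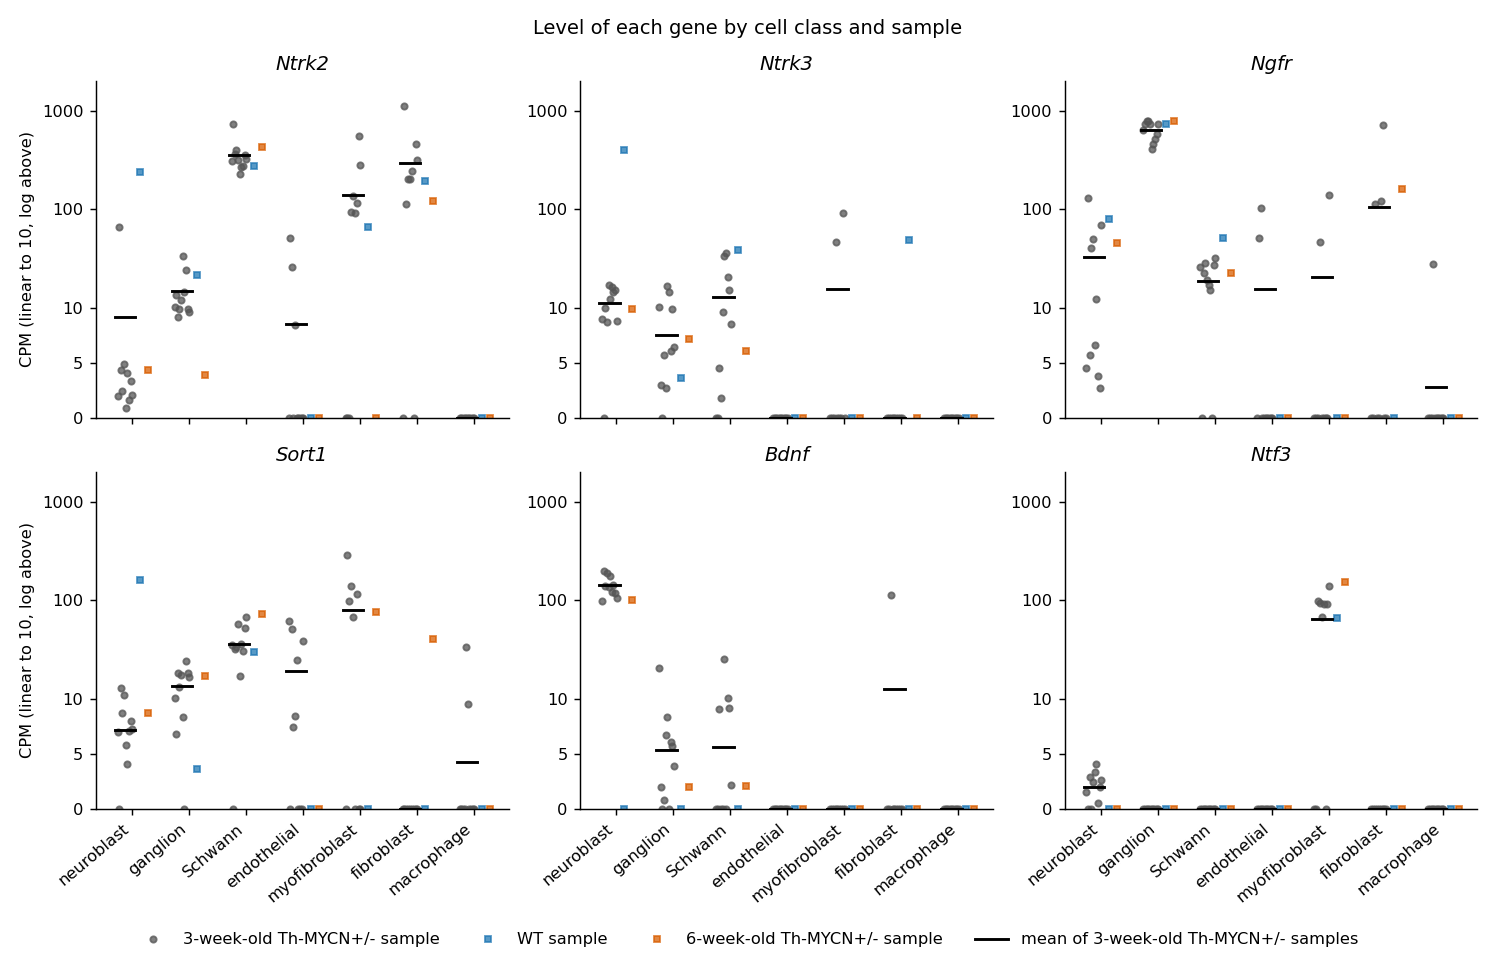
Level of each gene (vertical axis, CPM, linear to 10 and logarithmic above) in 7 cell classes (horizontal axis). Each gray point is 1 of the 10 3-week-old Th-MYCN+/- mice with at least 5 cells of the class, squares are the WT and the 6-week-old Th-MYCN+/- sample, and black bars are means of the gray points. Bdnf was at 98.3 CPM or higher in neuroblast-like cells of all 10 mice, Ngfr at 411 CPM or higher in ganglion-like cells and Ntrk2 at 229 CPM or higher in Schwann-like cells, whereas points at 0 or from few cells fill the vascular and stromal classes.

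Of the 2 ligands, Bdnf was measured well. In neuroblast-like cells its level was 98.3 CPM in #1, 198 in #2, 141 in #3, 189 in #4, 135 in #5, 174 in #6, 121 in #7, 143 in #8, 119 in #9 and 105 in #10. The value of #2 rested on 3 UMIs, and without #2 the mean was 136 ± 30.1 CPM (n = 9). In ganglion-like cells Bdnf ran from 0 to 20.4 CPM with a median of 4.77, and in Schwann-like cells from 0 to 25.5 CPM with a median of 1.07. No mouse overlapped between neuroblast-like and either other class. The share of all genes without such overlap was not computed, so that this does not set Bdnf apart.

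Counts were summed per mouse and class and compared within mice by edgeR's quasi-likelihood test, which also needs a gene to pass edgeR's filter on low counts. Bdnf, Ngfr and Ntrk2 passed it only in pairs that held the neural class where each was highest, which favors large differences. Bdnf was lower in ganglion-like than in neuroblast-like cells by 37.6-fold (log2 fold change -5.23, SE 0.35, adjusted p = 1.42e-11, 10 of 10 mice) and lower in Schwann-like than in neuroblast-like cells (log2 fold change -4.68, SE 0.39, adjusted p = 2.95e-09). These classes differ in most genes: 69.0% of the 6886 genes tested between ganglion-like and neuroblast-like cells were called at a false discovery rate of 0.05, as were 68.9% of 5322 between Schwann-like and neuroblast-like cells, so that a call as such does not set Bdnf apart. Genes lower in the first class were 36.2% and 37.4% of those tested. The 25 Bdnf UMIs in ganglion-like and 10 in Schwann-like cells stood beside 8.2 and 3.17 UMIs that free RNA of the droplets would give at the share estimated for each library.

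Within the neuroblast-like cells Bdnf was found in both clusters, which were not compared within mice. It averaged 150 ± 34.8 CPM in the cluster led by mitotic genes (n = 10) and 124 ± 44.9 CPM in the cluster whose leading genes included Rem2, Pnmt and Agtr2 (n = 9). Pooled over the 3-week-old Th-MYCN+/- mice it was 141 CPM in the former (Poisson interval 133 to 150) and 118 CPM in the latter (108 to 129), intervals of counting error only. Pnmt is a chromaffin cell gene, and the 3 chromaffin markers together were at 198 to 439 CPM in neuroblast-like cells and at 109 to 480 CPM in ganglion-like cells. Cells were thinned to 500 UMIs for shares, and shallower ones were left out (59 of 2516 neuroblast-like, 440 of 2510 ganglion-like, 383 of 2202 Schwann-like and 129 of 431 endothelial-like cells). Of those kept, 6.76% of neuroblast-like cells (166 of 2457, exact 95% binomial interval 5.8% to 7.82%) had a Bdnf UMI, against 0.0483% of ganglion-like cells and 0 of 302 endothelial-like cells, where 0 cells leave room for up to 0.993%. Without thinning the share was 37.9% in neuroblast-like cells, whose median depth was 4384 UMIs, and 0.837% in ganglion-like cells at 1158 UMIs. These intervals cover counting error only. In neuroblast-like cells thinned to 1000 UMIs, which left out 94 cells, 26.5% of 302 cells with a Bdnf UMI also had a transgene UMI (interval 21.6% to 31.8%), and so did 26.9% of 2120 cells without one (25% to 28.8%).

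Ntf3 was rare, with 30 UMIs in the named classes of 3-week-old Th-MYCN+/- mice. Of these, 8 were in 123 myofibroblast-like cells and 22 in 2516 neuroblast-like cells. In myofibroblast-like cells its level was 0 in #1, #3 and #8, 67.7 CPM in #6, 91.2 in #7, 91.7 in #9, 93.3 in #5, 97.8 in #4 and 141 in #10, and each nonzero value rested on 1 or 2 UMIs. In neuroblast-like cells it averaged 1.94 ± 1.41 CPM with UMIs in 8 of 10 mice. Ganglion-like cells held 0 Ntf3 UMIs among 8366272, which allows up to 0.359 CPM, and Schwann-like cells 0 among 2414678, which allows up to 1.24 CPM. Free RNA would give 0.0319 Ntf3 UMIs in the neuroblast-like sums. The difference between myofibroblast-like and neuroblast-like cells was 2.88 on the log2(CPM + 1) scale (higher in 6 of 9 mice, two-sided exact permutation of signs within mice, p = 0.0312, adjusted p = 0.0875). By the same sign permutation, neuroblast-like cells were above Schwann-like cells by 1.36 (higher in 8 of 10 mice, p = 0.00781, adjusted p = 0.0437). That result cannot decide a difference, because Schwann-like cells had 0 UMIs in every mouse, which fixed the direction. The 3-count limit of a mouse's Schwann-like cells was 5.36 to 739 CPM, above every neuroblast-like value. The p-values of these sign-flip tests were adjusted over the 28 of 36 neighbouring pairs of classes that had any UMI.

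Ngfr, the p75 receptor, was highest among the neural classes in ganglion-like cells of all 10 mice. In ganglion-like cells its level was 643 CPM in #1, 734 in #2, 792 in #3, 788 in #4, 737 in #5, 411 in #6, 460 in #7, 515 in #8, 579 in #9 and 738 in #10. In neuroblast-like cells it was 4.51 CPM in #1, 132 in #2, 5.74 in #3, 40.6 in #4, 50.4 in #5, 6.64 in #6, 12.3 in #7, 3.79 in #8, 2.66 in #9 and 69.1 in #10. The classes did not overlap, but the neuroblast-like values spread far more, and #2 there rested on 2 UMIs. How many of all genes also lacked overlap was not computed, so that this does not set Ngfr apart. The difference was 37.6-fold (log2 fold change 5.23, SE 0.37, adjusted p = 3.93e-11, edgeR, 10 mice), where 32.8% of genes tested were higher in ganglion-like cells. Ngfr was also lower in Schwann-like than in ganglion-like cells (log2 fold change -4.66, SE 0.2, adjusted p = 1.29e-14), where its level was 0 to 32 CPM, in a comparison that called 69.5% of 3158 genes, with 31.4% of those tested higher and 38.1% lower in Schwann-like cells. The study's own marker list gives Ngfr for ganglion cells of these samples, so that this direction is not independent of it.

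The Ngfr level of neuroblast-like cells depended on where the class was drawn. The cluster led by mitotic genes held 227 of the 265 Ngfr UMIs and ranged from 0.898 to 148 CPM over mice, and the other cluster ranged from 5.06 to 20.3 CPM. Free RNA would give 73.3 of the 265 UMIs, which is 27.7%, and the whole set of 15 ganglion markers was at 1534 to 4560 CPM in neuroblast-like cells, with no marker at 0. Their part in the neuroblast-like value was not tested. Among ganglion-like clusters, Ngfr averaged 890 ± 333 CPM in the shallow cluster of 809 cells (n = 10), 724 ± 232 CPM in the cluster that came mostly from #2 (n = 6) and 539 ± 169 CPM in the deep cluster of 332 cells led by Drd2, Gal and Scn2b among others (n = 9). After thinning to 500 UMIs, 27.6% of ganglion-like cells had an Ngfr UMI (interval 25.7% to 29.6%), against 0.285% of neuroblast-like, 0.99% of Schwann-like and 0 of 302 endothelial-like cells. Unthinned, the ganglion-like share was 55.2%.

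Ntrk2, the TrkB gene, was carried by Schwann-like cells in every mouse. Its level there was 307 CPM in #1, 739 in #2, 368 in #3, 397 in #4, 318 in #5, 229 in #6, 267 in #7, 278 in #8, 358 in #9 and 324 in #10. Mouse #2 contributed 3 UMIs in 7 cells, and without it the mean was 316 ± 53.1 CPM (n = 9). In ganglion-like cells Ntrk2 ran from 9.21 to 33.6 CPM with a median of 11.1, and in neuroblast-like cells from 0.83 to 65.9 CPM with a median of 2.85. Schwann-like cells lay above both in all 10 mice, by log2 fold changes of 4.91 over ganglion-like (SE 0.24, adjusted p = 6.13e-14) and 7.06 over neuroblast-like cells (SE 0.23, adjusted p = 3.44e-14) by edgeR, with 31.5% of genes tested higher in the latter comparison. The study lists Ntrk2 as a Schwann cell marker on the same samples.

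Ntrk2 was also found in stromal cells. In fibroblast-like cells it averaged 296 ± 340 CPM (n = 9), or 194 ± 157 CPM without #2 (n = 8), with UMIs in 7 of 9 mice, and in myofibroblast-like cells 141 ± 178 CPM with UMIs in 6 of 9 mice. The difference between Schwann-like and fibroblast-like cells was 2.04 on the log2(CPM + 1) scale (higher in 6 of 9 mice, exact permutation p = 0.102, adjusted p = 0.19), so that these neighbours did not differ beyond their spread. Ntrk2 did not pass the filter in the fibroblast-like comparison, which tested 188 genes and called 58.0% of them (29.3% higher and 28.7% lower). Endothelial-like cells held 4 Ntrk2 UMIs in 431 cells and were lower than Schwann-like cells (log2 fold change -5.59, SE 0.43, adjusted p = 5.06e-11, edgeR), in a comparison that called 53.9% of 1793 genes, 28.2% higher and 25.7% lower. Macrophage-like cells held 0 Ntrk2 UMIs among 341796, which allows up to 8.78 CPM. The 12 markers of fibroblasts were together at 1972 to 3853 CPM in Schwann-like cells, with none at 0, and their part in the Schwann-like value was not tested.

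Ganglion-like cells held more Ntrk2 than neuroblast-like cells in 9 of 10 mice, by 1.57 on the log2(CPM + 1) scale, but this did not pass the correction (exact permutation p = 0.0195, adjusted p = 0.0684). Of the 30 Ntrk2 UMIs in neuroblast-like cells 51.5% would be given by free RNA, and of the 98 in ganglion-like cells 15.5%. The 14 Schwann markers were at 132 to 11135 CPM in neuroblast-like and at 541 to 2500 CPM in ganglion-like cells. By share of cells at 500 UMIs, Ntrk2 was found in 15.8% of Schwann-like (interval 14.1% to 17.5%), 12.7% of fibroblast-like (8 of 63, 5.65% to 23.5%), 6.45% of myofibroblast-like (6 of 93, 2.4% to 13.5%), 0.435% of ganglion-like and 0.122% of neuroblast-like cells. The 2 large Schwann-like clusters were alike, at 322 ± 63.9 CPM in the cluster led by Kcna1, Sbspon and Tnc and 332 ± 80.5 CPM in the cluster whose leading genes included Socs3, Egr2 and Fos (n = 9 each).

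**Figure D2:**
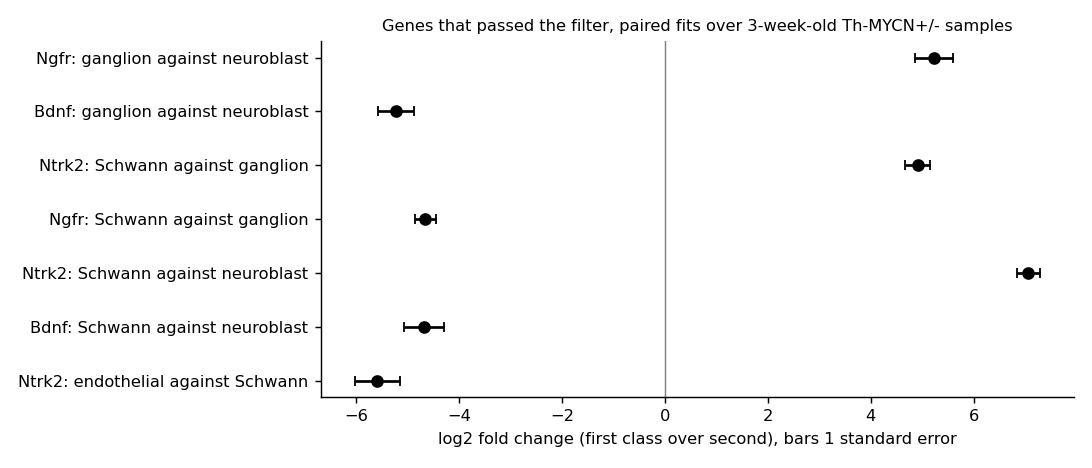
Log2 fold change (horizontal axis, first class over second) of each gene in each comparison where it passed the filter on low counts, with bars of 1 standard error. All 7 estimates lie beyond 4.6 in size, with Ntrk2 in Schwann-like over neuroblast-like cells the largest at 7.06. Each gene passed the filter only in pairs with the neural class where it was highest, so that large estimates were favored.

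Ntrk3, the TrkC gene, was found at low levels in all 3 neural classes. In neuroblast-like cells its level was 0 in #2 and between 8.75 and 17.2 CPM in the other 9 mice, with a mean of 11.3 ± 5.12 CPM. In Schwann-like cells it averaged 13 ± 13.3 CPM and in ganglion-like cells 7.54 ± 5.35 CPM. Neither Schwann-like against neuroblast-like (difference -0.4 on the log2(CPM + 1) scale, against the order of the means, adjusted p = 0.492) nor neuroblast-like against ganglion-like cells (difference 0.6, SD 1.49, higher in 7 of 10 mice, adjusted p = 0.389, exact permutation) differed beyond the spread between mice. Endothelial-like cells held 0 UMIs among 653074, which allows up to 4.59 CPM over the 10 mice together, but within a mouse the limit was 22.3 to 186 CPM, so that a level like that of ganglion-like cells was not detectable mouse by mouse. Of the 140 Ntrk3 UMIs in neuroblast-like cells free RNA would give 1.77%. The myofibroblast-like mean of 15.4 CPM, formally the highest, rested on 2 UMIs in 123 cells.

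Sort1 was spread over neural and vascular classes. In Schwann-like cells its level was 35.1 CPM in #1, 0 in #2, 31.8 in #3, 34 in #4, 57.9 in #5, 17 in #6, 35.9 in #7, 30.9 in #8, 52 in #9 and 68.2 in #10. Myofibroblast-like cells averaged 79.1 ± 97 CPM from 8 UMIs, endothelial-like 19.1 ± 23.4, ganglion-like 13.4 ± 7.1 and neuroblast-like 7.19 ± 3.56 CPM. In the paired differences myofibroblast-like cells were not above Schwann-like cells (-1.39 on the log2(CPM + 1) scale, SD 3.99, higher in 5 of 9 mice). None of the 6 neighbouring pairs in this order passed the correction, among them Schwann-like over endothelial-like (adjusted p = 0.119), ganglion-like over neuroblast-like (higher in 9 of 10 mice, adjusted p = 0.243) and neuroblast-like over macrophage-like cells (adjusted p = 0.0625, exact permutation each). Fibroblast-like cells held 0 Sort1 UMIs among 75010, which allows up to 40 CPM. Sort1 did not pass the filter in any comparison by edgeR, and the fit with no filter gave log2 fold changes of 2.28 for Schwann-like over neuroblast-like cells (SE 0.29, adjusted p = 6.43e-14) and 1.62 over ganglion-like cells (SE 0.31, adjusted p = 7.77e-07).

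That fit also gave values for the other genes outside the filter, but its p-values are on another footing: for Bdnf between ganglion-like and neuroblast-like cells it gave an adjusted p of 3.19e-56 where the filtered fit gave 1.42e-11 by edgeR. Ntrk2 was higher in ganglion-like than neuroblast-like cells (log2 fold change 2.02, SE 0.39, adjusted p = 1.04e-06), where the sign-flip test over mice did not pass. Ntrk3 was lower in ganglion-like than neuroblast-like cells (log2 fold change -0.8, SE 0.34, adjusted p = 0.0446). For fibroblast-like against Schwann-like cells Ntrk2 had a log2 fold change of -1.65 (SE 0.45, adjusted p = 0.00341, edgeR with no filter). The median over all 15102 genes of that comparison was -1.16, and 13.3% of its calls were higher in fibroblast-like cells. The value of -1.65 therefore does not by itself show a lower Ntrk2 level. Ntrk2 (3.61, SE 0.77, adjusted p = 8.12e-05) and Ntf3 (4.01, SE 1.12, adjusted p = 0.00511) had positive log2 fold changes in myofibroblast-like over endothelial-like cells. Endothelial-like cells held 4 Ntrk2 UMIs and 0 Ntf3 UMIs, so that the second of these fold changes depends on the fit's handling of zeros.

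**Figure D3:**
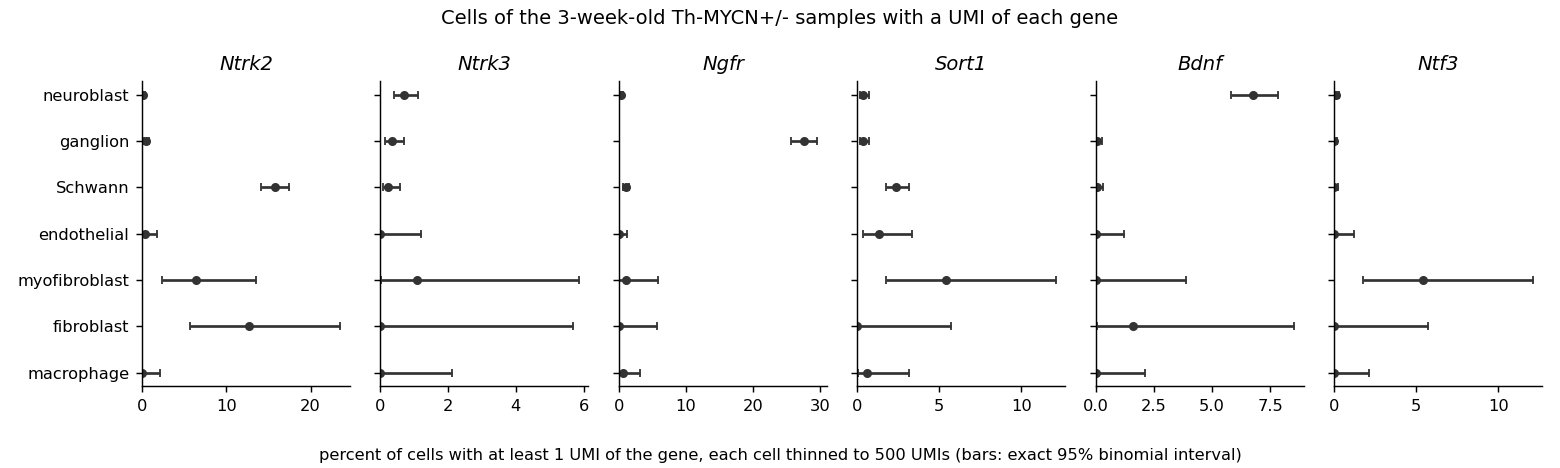
Percent of cells in Th-MYCN+/- mice aged 3 weeks with at least 1 UMI of each gene (horizontal axis, own scale per gene) in 7 classes (vertical axis), after thinning to 500 UMIs, with shallower cells left out. Points are pooled shares and bars exact 95% binomial intervals. Ngfr was found in 27.6% of ganglion-like and Bdnf in 6.76% of neuroblast-like cells, whereas for Ntrk2 the fibroblast-like interval (5.65% to 23.5%) takes in the Schwann-like share of 15.8%.

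Compared with the 3-week-old Th-MYCN+/- mice, the single WT sample had Ngfr and Ntrk2 inside their range in the classes that carry them. Ngfr in WT ganglion-like cells was 728 CPM (201 UMIs in 88 cells, exact Poisson interval 631 to 836), inside the Th-MYCN+/- range of 411 to 792. Ntrk2 in WT Schwann-like cells was 273 CPM (64 UMIs in 347 cells, interval 210 to 348), inside the range of 229 to 739, with 8 of 10 Th-MYCN+/- mice above it. Bdnf had 0 UMIs in all 618 WT cells, among 701793 UMIs, which allows up to 4.27 CPM over the whole ganglion. Over all cells of a library the 10 Th-MYCN+/- mice had 5.83 to 128 CPM, with the lowest value in #2. The WT ganglion held only 33 neuroblast-like cells with 12425 UMIs in all, where 0 UMIs allow up to 241 CPM, so that a Bdnf level like that of Th-MYCN+/- neuroblast-like cells is not excluded there.

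In the 6-week-old Th-MYCN+/- ganglion Bdnf, Ngfr and Ntrk2 were each highest, among the neural classes, in the class that led at 3 weeks. Bdnf in neuroblast-like cells was 102 CPM (164 UMIs in 230 cells, interval 86.7 to 119), below 9 of the 10 younger mice, whose lowest value was 98.3. Ngfr in ganglion-like cells was 785 CPM (interval 741 to 831), below 2 and above 8 of the 10 mice. Ntrk2 in Schwann-like cells was 432 CPM (interval 376 to 494), above 9 of the 10 mice. Those 9 ran from 229 to 397 CPM, and the mouse above it was #2, at 739 CPM from 3 UMIs in 7 cells. Ntf3 had 0 UMIs in the 6-week-old neuroblast-like cells (3-count limit 1.86 CPM, Poisson interval 0 to 2.29 CPM). That interval takes in the mean of 1.94 CPM at 3 weeks, where mice ranged from 0 to 4.09 CPM. The 16 myofibroblast-like cells at 6 weeks held 2 Ntf3 UMIs.

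**Figure D4:**
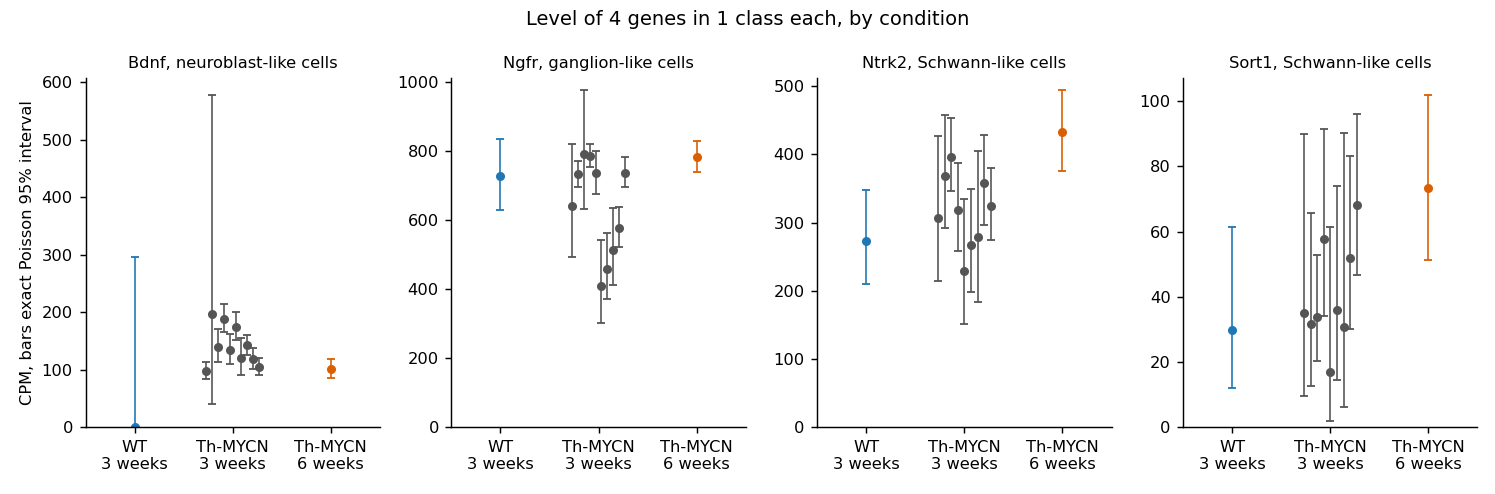
CPM (vertical axis) of Bdnf, Ngfr, Ntrk2 and Sort1 in 1 class each, by condition (horizontal axis), for mice with at least 20 cells of the class, which leaves out #2 with 7 Schwann-like cells. Points are samples and bars exact Poisson 95% intervals of the count. The WT Bdnf bar reaches 297 CPM because its class held only 12425 UMIs, and the 6-week-old Sort1 point at 73.4 CPM lies above all 3-week-old points.

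Of 36 values of the 6 genes in the 3 neural classes of the WT and the 6-week-old sample, 8 lay outside the range of the 10 younger Th-MYCN+/- mice. The share over all genes was not computed. Ties aside, 1 sample of the same kind as 10 others lies outside their range with a probability of 0.182. The count of 8 is therefore not read as a result about these genes. In the 6-week-old sample Ntrk2 in ganglion-like cells was 3.9 CPM (6 UMIs, interval 1.43 to 8.49) below a range of 9.21 to 33.6, and Sort1 in Schwann-like cells was 73.4 CPM (36 UMIs, interval 51.4 to 102) above a range of 0 to 68.2. In WT Schwann-like cells Ntrk3 was 38.3 CPM (9 UMIs, interval 17.5 to 72.7) against a highest value of 35.9, and Ngfr 51.1 CPM (12 UMIs, interval 26.4 to 89.3) against a highest value of 32. The other 4 were in the 33 WT neuroblast-like cells, where Ntrk2, Ntrk3 and Sort1 had 2 to 5 UMIs each and Bdnf had 0, a value whose interval of 0 to 297 CPM takes in the whole Th-MYCN+/- range. Under other clusterings Ngfr in WT neuroblast-like cells moved from 80.5 to as much as 934 CPM, so that this small class has no fixed value. A comparison of 1 sample with 10 cannot give a two-sided exact permutation p below 0.182.

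Other genes of the pathway were counted from lists set by role, and their counts stand beside a background of 69.0% of all genes called between ganglion-like and neuroblast-like cells (32.8% higher, 36.2% lower). Of 9 genes of the sortilin family and receptor partners, 3 passed the filter between ganglion-like and neuroblast-like cells and all 3 were higher in ganglion-like cells by edgeR: Islr2, a membrane partner of Trk receptors (log2 fold change 4.04, SE 0.29, adjusted p = 4.16e-11), Lingo1, a co-receptor of p75 (2.76, SE 0.26, adjusted p = 2.92e-09), and Kidins220, a Trk and p75 scaffold (0.72, SE 0.22, adjusted p = 0.00635). The median over these 3 receptor partners was 2.76, beside -0.07 over all genes tested. The sortilin family genes of the list, Sorcs1, Sorcs2, Sorcs3 and Sorl1, did not pass the filter, so that nothing is said of them. Of 18 genes listed under Trk adaptors 8 were tested, with 3 higher and 1 lower and a median of 0.23, a smaller share called than among all genes. The largest by edgeR were Shc1, the adaptor that links Trk to Ras (2.56, SE 0.22, adjusted p = 1.14e-09), and Ptpn11, which encodes the phosphatase SHP2 (1.03, SE 0.25, adjusted p = 0.00101). The 1 lower gene was Mapk7 (-1.27, SE 0.27, adjusted p = 0.000273, edgeR), which encodes the kinase ERK5 and not an adaptor.

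Of 11 p75 effectors 7 were tested in the same comparison, with 1 higher and 2 lower, again a smaller share than the background. Arhgdia was higher in ganglion-like cells (log2 fold change 1.33, SE 0.15, adjusted p = 5.18e-08), and Bex1 (-1.67, SE 0.16, adjusted p = 6.57e-09) and Maged1 (-1.15, SE 0.2, adjusted p = 2.04e-05), which encode proteins that bind p75, were lower, by edgeR. Between Schwann-like and neuroblast-like cells 5 p75 effectors were tested and 3 were lower, where 68.9% of all genes were called and 37.4% were lower, with Bex1 at -3.64 (SE 0.27, adjusted p = 5.67e-10) and Bex3 at -1.88 (SE 0.16, adjusted p = 3.31e-09). Of 4 Trk adaptors tested there, 2 were lower, Shc2 (-2.98, SE 0.43, adjusted p = 6.16e-06) and Grb2 (-0.53, SE 0.16, adjusted p = 0.00569). Kidins220, the 1 receptor partner tested, was at -0.41 (adjusted p = 0.202).

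Between Schwann-like and ganglion-like cells, where 69.5% of all genes were called and 38.1% were lower, 3 of 4 p75 effectors were lower, the largest being Bex1 (-2.16, SE 0.27, adjusted p = 2.97e-07) and Bex3 (-2.12, SE 0.18, adjusted p = 3.4e-10), as were both Trk adaptors tested, Shc1 (-2.16, SE 0.21, adjusted p = 3.69e-09) and Grb2 (-1.22, SE 0.21, adjusted p = 2.62e-05). Plat, which encodes tissue plasminogen activator, a protease of the pathway that cleaves pro-BDNF through plasmin, was higher in Schwann-like than in ganglion-like (5.11, SE 0.25, adjusted p = 5.97e-14) and neuroblast-like cells (8.2, SE 0.4, adjusted p = 2.12e-12). Endothelial-like against Schwann-like cells (53.9% of all genes called) left 3 p75 effectors to test, of which Arhgdia was higher (0.51, SE 0.18, adjusted p = 0.02) and Bex3 (-0.7, SE 0.25, adjusted p = 0.0234) and Maged1 (-1.24, SE 0.23, adjusted p = 4.49e-05) were lower. In the fibroblast-like and myofibroblast-like comparisons, the latter of which called 69.1% of 272 genes (31.2% higher and 37.9% lower), no gene of the 4 role lists passed the filter.

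The genes whose profile was most like each of the 6 were found by Pearson's r of log2(CPM + 10) over 42 sums of at least 20 cells, among 12342 genes, as a description, since these sums share mice and libraries. Bdnf was most like Top2a (r = 0.977), Agtr2 (0.966) and Oip5 (0.964), of which Top2a encodes the topoisomerase of dividing cells. Ngfr was most like Ndrg4 (0.943), Npy (0.931) and Eno2 (0.926), the last a neuronal enolase and Npy the neuropeptide of sympathetic neurons. Ntrk2 was most like Art3 (0.964), Col3a1 (0.961), a collagen gene, and Rarres2 (0.959). Among the genes most like Ntf3 were Acta2 (0.941) and Des (0.94), contractile and filament genes of smooth muscle, from only 26 Ntf3 UMIs. Sort1 (highest r 0.84, Inka2, then A830082K12Rik at 0.804 and Rnf135 at 0.788) and Ntrk3 (highest r 0.719, Gfra3, then Src at 0.703 and Foxp4 at 0.688) had looser matches.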

How the data were processed

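Reads were aligned by the authors to mm10 with the human MYCN transgene sequence using Cell Ranger, per the paper's methods, and the matrix headers gave software version 3.0.2. The deposited values are raw UMI counts per gene and droplet for all 737280 barcodes, unfiltered and not normalized. The sources used here do not name the annotation release. The members and gene lists were chosen with earlier results of these data known, and some genes are left unreported.

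Cells were called by EmptyDrops (re-implemented, at most 100 UMIs for empty droplets, 10000 draws, FDR 0.01, tested on simulated data), and those with under 200 genes, over 60% ribosomal or over 10% mitochondrial UMIs were left out, which kept 12015 of 16168. Cells were clustered with Seurat 5.3.0 and sctransform 0.4.2 without the 6 genes. A cluster was named if at least 50% and at least 3 of a class's markers were 1.5-fold higher than elsewhere and in 10% of cells. Scrublet marked 48 cells (0.4%), and its calls were not used, so doublets may remain. UMIs were summed per mouse and class (at least 5 cells) and tested in the 3-week-old Th-MYCN+/- mice with edgeR 4.0.16 (filterByExpr, TMM, quasi-likelihood test, mouse as block, Benjamini-Hochberg), after a check on simulated counts. Classes of 1 mouse come from the same library, so the pairing is by design, and deviations of paired sums correlated at -0.018 to 0.459. Neighbouring classes in the order of mean CPM were compared by exact two-sided sign-flip permutation of log2(CPM + 1). Conditions with 1 sample were given with Poisson intervals and no test. Named pathway genes were up to 2 per direction, role and comparison, by size of change, at FDR 0.05 (Kidins220 was named beyond this rule, after its values were seen), and up to 3 genes most alike per member were named by correlation. Free RNA per library (1.08% to 11.8% of cell UMIs) was estimated from ganglion markers in endothelial-like cells. A limit for 0 counts is 3 counts. Alternatives were other filters, clusterings, doublet removal, free RNA subtraction, DESeq2 1.42.0, library totals, no filter, no block, other cell minimums and leaving out each mouse.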

Additional observations from a re-analysis of the deposited data

Results flagged for a closer look

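The Bdnf level of 20.4 CPM in ganglion-like cells of mouse #1 was far from the other 9 mice, which ran from 0 to 8.39 CPM, and rested on 2 UMIs in 30 cells. Mouse #2 was far from the others in 4 sets, each from few cells: Ntrk2 at 65.9 CPM in neuroblast-like cells (1 UMI, other mice 0.83 to 4.91), Ntrk2 at 739 CPM in Schwann-like cells (3 UMIs, others 229 to 397), Ntrk3 at 0 in neuroblast-like cells (others 8.75 to 17.2) and Ngfr at 132 CPM in neuroblast-like cells (2 UMIs, others 2.66 to 69.1). Dixon's test was run on 15 sets of a gene and a class with at least 20 UMIs, and chance marks about 1 in 20 sets.

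Cells of the 3 clusters without a name enter no comparison, and they held Bdnf as well. The 16 neuroblast markers together were at a median of 17563 CPM in them, against 20893 CPM in neuroblast-like and 4068 CPM in ganglion-like cells (Th-MYCN+/-, 3 weeks), and log-normalized clustering left no cell unnamed and gave 5089 neuroblast-like cells in place of 2779. In the 3-week-old Th-MYCN+/- mice their Bdnf level was 96.3 CPM (254 UMIs in 2327 cells), and in the 6-week-old sample 116 CPM (31 UMIs in 140 cells), against 0 UMIs in 11 WT cells, for which the Poisson interval reaches 55.5 CPM. Within them, the cluster of 237 cells led by Cartpt was at 155 ± 71.9 CPM and the shallow cluster of 2077 cells at 80.1 ± 36.2 CPM (SD over 10 mice). The shallow cluster also held Ngfr at 9.09 to 507 CPM. These cells were 10.5% to 37.7% of each 3-week-old Th-MYCN+/- library, 14.8% of the 6-week-old library and 1.78% of the WT library.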

How the results depend on the processing

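All 7 log2 fold changes of Bdnf, Ngfr and Ntrk2 kept their direction and passed the threshold under 23 alternatives each (161 values), including the fit with no replicate block, which also changed no call among them. Ngfr in ganglion-like against neuroblast-like cells ran from 4.66 to 6.58, Bdnf from -5.53 to -4.64, Ntrk2 in Schwann-like against neuroblast-like cells from 6.72 to 7.56 and the highest adjusted p was 3.47e-08. With no filter on low counts the number of genes called rose to 7979 between ganglion-like and neuroblast-like, 6884 between Schwann-like and ganglion-like, 7935 between Schwann-like and neuroblast-like, 3463 between endothelial-like and Schwann-like, 2304 between fibroblast-like and Schwann-like and 1535 between myofibroblast-like and endothelial-like cells, from 4748, 2194, 3665, 966, 109 and 188, since more genes were tested. The fibroblast-like count was 296 with cells of at least 500 UMIs, 181 under a stricter limit of 500 genes and 5% mitochondrial UMIs, 313 with at least 10 cells per sum and 79 to 336 leaving out 1 mouse, with 336 without #2, and the cause was not tested. Leaving out 1 mouse gave counts of 4344 to 5223, 1996 to 2539, 3244 to 4337, 863 to 1073 and 132 to 206 in the other 5 comparisons in the same order. Of the calls between Schwann-like and ganglion-like cells 45.2% were higher in Schwann-like cells, and 31.3% without the highest 5% of Scrublet scores, 31.0% without #9 and 31.2% without #10, where the median of all genes moved from -0.11 to -0.46, -0.46 and -0.45. Between Schwann-like and neuroblast-like cells 45.7% became 36.8% with library totals (median of all genes -0.32 in place of -0.10). Between fibroblast-like and Schwann-like cells 50.5% became 13.3% with no filter, 31.8% without #2, 35.1% without #7, 39.2% without #4, 38.0% with at least 10 cells per sum, 38.2% with cells of at least 500 UMIs, 38.8% with the 6 genes kept in the clustering and 39.6% with DESeq2. With no filter the endothelial-like split went from 52.4% to 38.9% and the myofibroblast-like split from 45.2% to 19.7%. Of the 5 neighbouring pairs past the threshold, those of Ntrk3 and Bdnf (ganglion-like over endothelial-like) and of Ntf3 (neuroblast-like over Schwann-like) set a class against one at 0 UMIs in every mouse, where depth fixes the direction. The 5 kept their direction in all 50 values under alternatives and lost the call in 17 of them. Their number was 0 with cells of at least 500 UMIs, 0 with the stricter gene and mitochondrial filter, 0 with at least 10 cells per sum, 9 with log-normalized clustering and 9 without replicate 2. Values outside the range numbered 4 and 3 under the 2 stricter cell filters in place of 8. Shares of cells at 1000 UMIs and unthinned were 28.7% and 29% for Ntrk2 in Schwann-like, 49.4% and 55.2% for Ngfr in ganglion-like and 12.5% and 37.9% for Bdnf in neuroblast-like cells. Leaving out #2, chosen after seeing the data, moved Ntrk2 in Schwann-like cells to 316 CPM. Ngfr in 6-week-old neuroblast-like cells ran from 6.81 to 202 CPM over clusterings beside 45.3 CPM. Depth limits Ntf3, Ntrk3 and Sort1, and the stromal and WT neuroblast-like classes.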
